A study of Mus musculus with 20 samples.

Results

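Brown adipocytes are fat cells that burn lipid in their mitochondria to make heat, and the 8 genes described here are those most often used to recognise them: Ucp1, Cidea, Elovl3, Dio2, Ppargc1a, Prdm16, Cox7a1 and Cox8b. They were followed in whole mouse tracheas, with and without injury, in wild-type mice and in mice that lack Myd88, an adaptor protein that carries signals from Toll-like and interleukin-1 receptors to NF-kB. The genes were taken as a set with earlier results of these data known, and their probes were found by name: all probes, other than controls, whose gene name on the array was 1 of the 8 symbols were taken. This gave 9 probes of 41174, and 8 of the 27962 gene names on the array. Ppargc1a had 2 probes and every other gene had 1.

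The study compared 20 tracheas, 5 from each combination of genotype (wild-type or Myd88KO) and state (uninjured or injured). Wild-type mice were C57/Bl6 of a separate in-house C57/Bl6JOlaHsd colony, and the knockout had been crossed back to that strain and was then kept by mating knockouts to each other, so genotype and colony cannot be told apart. Injured mice had received 2% polidocanol, a detergent that strips the tracheal epithelium, under isoflurane 3 days before collection. For the mice labelled as controls neither anaesthesia nor instillation is described. The paper states that all mice received BrdU, which marks dividing cells, before they were killed. The labels give an age of 4 months for all groups, and males and females were both used. The preparation was the entire trachea after excess connective tissue had been trimmed, so the RNA came from all cells left on it. Replicates were 5 separate biological samples in each group. In such bulk samples, fewer cells of a type and less RNA per cell cannot be told apart.

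When the sympathetic nerves release noradrenaline, beta-adrenergic receptors on a brown adipocyte raise cAMP, lipid droplets are broken down, and fatty acids both feed the mitochondria and open Ucp1. Ucp1 is the uncoupling protein that lets protons return across the inner mitochondrial membrane without making ATP. Dio2 activates thyroid hormone inside the cell, Ppargc1a is the coactivator that drives mitochondrial genes, and Prdm16 is a transcriptional regulator of brown fat identity. Cidea is a lipid droplet protein, Elovl3 lengthens very long chain fatty acids, and Cox7a1 and Cox8b are subunits of cytochrome c oxidase that brown fat shares with striated muscle.

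The promoters of 6 of the 8 genes were held in the RefSeq table used (mouse assembly GRCm38.p6), and those of Elovl3 and Cidea were not. Of the 3 shown, each has the TGACG core of the cAMP response element, a sequence bound by CREB-family factors, within the 250 bases before the annotated start. They are written 5′ to 3′ along the gene, with TGACG, the nuclear receptor element AGGTCA and the TATA box TATAAA in capitals wherever the letters occur on either strand. Ucp1 is at chr8:83290098-83290347 (plus strand), Dio2 at chr12:90739039-90739288 (minus strand) and Ppargc1a at chr5:51567726-51567975 (minus strand).
Ucp1 promoter: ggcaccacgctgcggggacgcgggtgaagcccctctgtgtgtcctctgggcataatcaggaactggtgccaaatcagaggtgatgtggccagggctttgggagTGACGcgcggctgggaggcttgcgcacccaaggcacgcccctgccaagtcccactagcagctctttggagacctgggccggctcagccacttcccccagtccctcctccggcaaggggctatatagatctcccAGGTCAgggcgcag
Dio2 promoter: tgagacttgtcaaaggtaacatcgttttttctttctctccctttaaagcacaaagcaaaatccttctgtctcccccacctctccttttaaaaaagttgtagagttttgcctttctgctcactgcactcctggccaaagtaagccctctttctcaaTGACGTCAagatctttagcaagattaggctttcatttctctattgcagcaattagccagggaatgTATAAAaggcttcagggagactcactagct
Ppargc1a promoter: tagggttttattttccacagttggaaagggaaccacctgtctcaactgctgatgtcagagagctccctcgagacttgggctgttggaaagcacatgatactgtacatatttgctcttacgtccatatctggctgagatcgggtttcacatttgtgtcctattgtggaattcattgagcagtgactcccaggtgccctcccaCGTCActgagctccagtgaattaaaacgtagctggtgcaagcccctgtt
The TGACG letters occurred in 17.8% of the 32851 promoters of the same length, counting both strands. In Dio2 they overlapped on both strands in the complete 8-base element TGACGTCA, beginning 95 bases before the start, which 1.55% of promoters held. In Ucp1 they began 147 bases before the start and in Ppargc1a 49 bases before it, on the opposite strand. AGGTCA was present in 14% of promoters and, of the 6, in Ucp1 only, whereas TATAAA was present in 12.4% and, of the 6, in Dio2 only. Prdm16, Cox7a1 and Cox8b held none of these motifs in this window. These matches describe the letters and not a bound site.

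Signals are given as the log2 intensity of a probe relative to the 75th percentile of its own array, so 0 stands for that percentile, 1 unit is a doubling, and values of different probes are not comparable in level. A probe was tested if 10 or more arrays marked it as well above background. All 9 probes passed, and 8 of them were so marked on every array. The exception was Elovl3, which was well above background on 2 of the 5 injured wild-type arrays and on all others. The share of spots well above background was 57.5% to 67.8% over the arrays. Differences come from limma fitted to all 26064 probes that passed the filter on all 20 arrays, with p-values adjusted by the Benjamini-Hochberg method over all of these probes, and a probe was called at an adjusted p under 0.01. Each of the 5 slides carried 1 array of every group, so every comparison could also be made within slides. Myd88 itself ranged from 1.94 to 2.28 in uninjured wild-type and from 1.6 to 2.04 in uninjured Myd88KO tracheas. In injured tracheas it ranged from 2.36 to 2.8 in wild-type and from 1.54 to 2.09 in Myd88KO, without overlap. The deleted part of the gene is not given in the sources used here, so this probe checks no label.

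In uninjured tracheas, Ucp1, Cidea and Elovl3 were higher in every Myd88KO array than in any wild-type array, by 2.9-fold for Cidea, 5.36-fold for Ucp1 and 6.12-fold for Elovl3. The other 5 genes overlapped between the genotypes. None of the 8 was called by limma in the fit over all 20 arrays, where 0.384% of all probes were called. The one-way test of the methods called 0 of the 8, and only 46 of all 26064 tested probes. At an unadjusted p under 0.05, 3 of the 8 were higher in the knockout (3.82% of all probes). Groups that did not overlap in this direction were found for 3 of the 8 genes and for 1.71% of all probes.

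Ucp1 measured 1.5, 2.37, 0.66, 3.09 and 2.30 in uninjured wild-type replicates 1 to 5, and 3.95, 4.50, 4.18, 5.06 and 4.34 in uninjured Myd88KO replicates 1 to 5. The lowest knockout array was thus above the highest wild-type array. The means were 1.98 ± 0.93 and 4.41 ± 0.42 (SD, n = 5 each). The difference was 2.42 (SE 0.68, 95% interval 1.00 to 3.85), with an adjusted p of 0.199 in limma, and it was positive on 5 of 5 slides, between 1.97 and 3.53. By the exact two-sided permutation test over the 10 arrays p was 0.00794, the smallest value that 5 against 5 can give. A larger absolute difference was found in 0.253% of the tested probes.

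Cidea measured 4.87, 4.45, 4.47, 5.31 and 4.07 in uninjured wild-type and 6.53, 6.28, 6.15, 5.94 and 5.96 in uninjured Myd88KO tracheas. The knockout arrays spanned a narrower range than the wild-type arrays and lay wholly above them. The difference was 1.54 (SE 0.45, 95% interval 0.60 to 2.47, limma adjusted p = 0.233), and it was positive on 5 of 5 slides, between 0.62 and 1.89.

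Elovl3 measured -2.60, -4.49, -4.43, -2.93 and -3.19 in uninjured wild-type and -0.36, -1.30, -1.51, -0.76 and -0.65 in uninjured Myd88KO tracheas. The gene had the widest gap of the 8 between the uninjured genotypes, and its knockout arrays again lay wholly above the wild-type arrays. The difference was 2.61 (SE 0.67, 95% interval 1.22 to 4.01, limma adjusted p = 0.121), and it was positive on 5 of 5 slides, between 2.17 and 3.19. With the background corrected by normexp instead, the difference was 1.74. A constant of 50 was added to every intensity in that setting, which shrinks log2 differences at low signal.

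The calls for these 3 genes depended on which arrays set the spread. The SD of Ucp1 was 0.93 and 0.42 in the uninjured groups and 1.74 and 1.21 in the injured groups, and the fit over 20 arrays shares 1 spread among all of them. When only the 10 uninjured arrays were fitted, 2 of the 8 genes and 100 of all 26064 tested probes were called, Elovl3 at an adjusted p of 0.0061 and Cidea at 0.00586, and Ucp1 had an adjusted p of 0.012 (limma). When the slide was added as a block to that fit, Elovl3 (adjusted p = 0.00068) and Ucp1 (0.00378) were called, among 90 of all tested probes, and Cidea had an adjusted p of 0.0168. That last fit was chosen after seeing the data, since uninjured arrays of the same slide deviated together. With the slide as a block over all 20 arrays, none was called, and the adjusted p was 0.022 for Elovl3, 0.0699 for Ucp1 and 0.165 for Cidea.

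**Figure D1:**
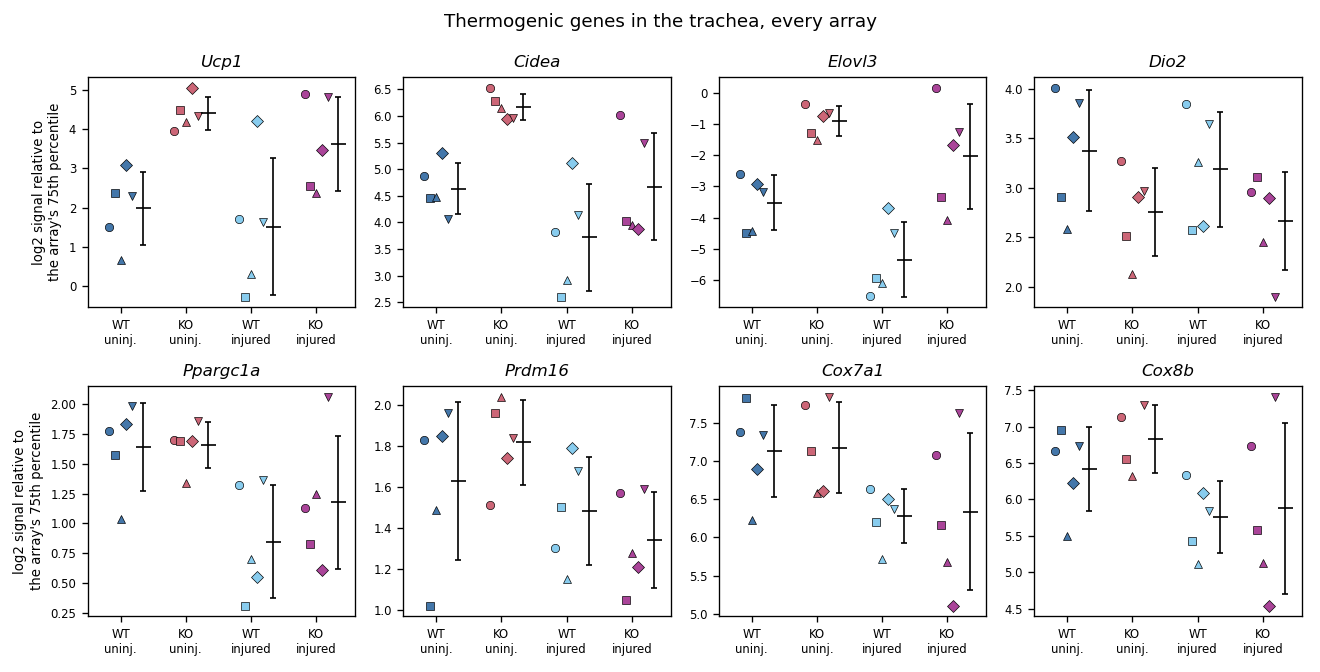
Signal of the 8 genes on every array (vertical axis, log2 relative to the 75th percentile of the array) in the 4 groups. Each point is 1 array, its shape marks the replicate and slide number, and the bar beside it is the mean ± SD (n = 5, or 4 for Cox8b in uninjured Myd88KO tracheas). Uninjured knockout arrays lie wholly above uninjured wild-type arrays for Ucp1, Cidea and Elovl3 only. The vertical axes differ between panels.

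Dio2 and the regulators Ppargc1a and Prdm16 did not share that difference. Dio2 measured 4.01, 2.91, 2.59, 3.51 and 3.86 in uninjured wild-type and 3.27, 2.51, 2.13, 2.91 and 2.97 in uninjured Myd88KO tracheas. It was lower in the knockout on 5 of 5 slides, with differences of -0.89 to -0.40, while the groups overlapped. The difference was -0.62 (SE 0.32, 95% interval -1.29 to 0.05, limma adjusted p = 0.946). Ppargc1a measured 1.77, 1.57, 1.04, 1.83 and 1.98 in uninjured wild-type and 1.70, 1.69, 1.34, 1.69 and 1.86 in uninjured Myd88KO tracheas, and the ranges coincided. Its difference was 0.02 (95% interval -0.52 to 0.56), and the second Ppargc1a probe gave -0.06 (-0.53 to 0.42). The upper ends of both intervals lie below the differences measured for Ucp1, Cidea and Elovl3. Prdm16 ranged from 1.02 to 1.96 in wild-type and from 1.51 to 2.04 in knockout tracheas, with a difference of 0.19 (95% interval -0.19 to 0.57).

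The oxidase subunits overlapped as well. Cox7a1 ranged from 6.23 to 7.83 in uninjured wild-type and from 6.58 to 7.85 in uninjured Myd88KO tracheas, and its difference of 0.04 had a 95% interval of -0.81 to 0.89. Cox8b measured 6.67, 6.95, 5.50, 6.23 and 6.73 in wild-type and 7.13, 6.55, 6.32 and 7.30 in 4 knockout arrays. The spot on Myd88KO control replicate 4 was marked as an outlier by the scanner software and left out of the fit. The difference was 0.41 (95% interval -0.57 to 1.39, limma adjusted p = 1). Both subunits are also made in muscle, and muscle was plentiful in these preparations: all 14 skeletal muscle markers were above background on every array, among them Tnnc2 and Tnni2, subunits of the fast skeletal troponin complex. The part of muscle in the values of Cox7a1 and Cox8b was not tested.

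**Figure D2:**
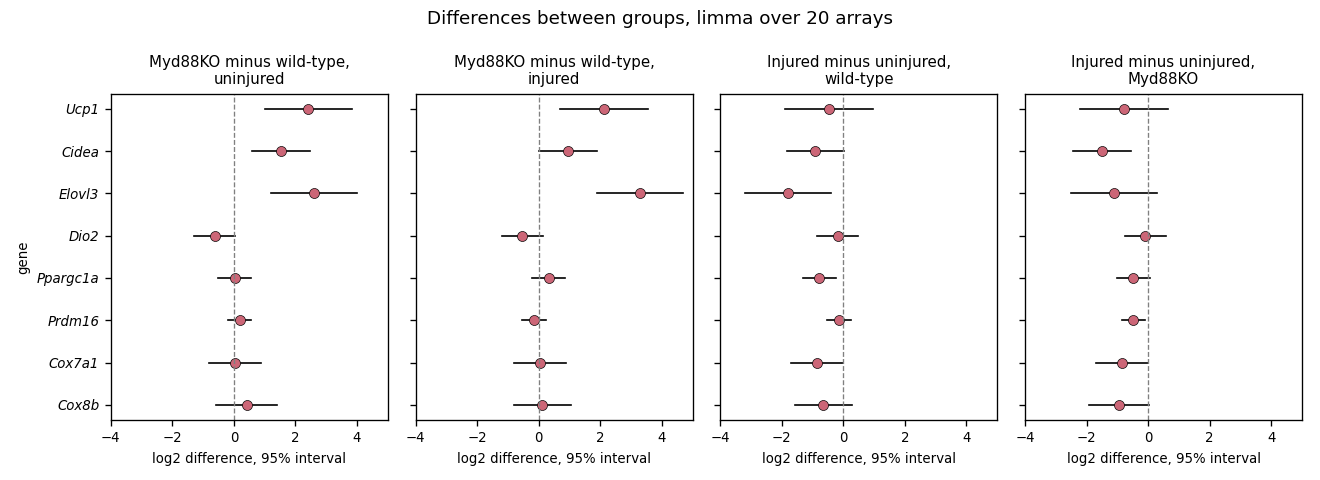
Differences of the 8 genes in 4 comparisons (horizontal axis, log2) with 95% intervals from limma over 20 arrays. The intervals of Ucp1, Cidea and Elovl3 lie above 0 in both comparisons of Myd88KO with wild-type, and those of the other 5 genes cross 0 there.

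After injury, Elovl3 and Ucp1 had again the largest positive differences of the 8 between Myd88KO and wild-type tracheas, but the arrays of each group were spread more widely. Both injured groups are compared here with each other and share no array with the uninjured comparison. None of the 8 genes was called by limma, against 0.38% of all probes. The one-way test of the methods called 0 of the 8, and only 21 of all 26064 tested probes. At an unadjusted p under 0.05, 3 of the 8 (Ucp1, Cidea and Elovl3) were higher in the knockout (4.43% of all probes), and 0 lay wholly above wild-type (0.694%). By the exact two-sided permutation test over arrays p was 0.0159 for Elovl3, 0.0635 for Ucp1 and 0.175 for Cidea.

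Elovl3 measured -6.51, -5.93, -6.09, -3.68 and -4.50 in injured wild-type and 0.16, -3.35, -4.07, -1.66 and -1.27 in injured Myd88KO tracheas. Only the wild-type values of replicates 4 and 5 were well above background, and 1 knockout array, replicate 3, fell below 1 wild-type array, replicate 4. The fitted difference was 3.30 (SE 0.67, 95% interval 1.91 to 4.70, limma adjusted p = 0.0199), positive on 5 of 5 slides. Since 3 of the 5 wild-type values were not well above background, its size rests partly on the floor of the array and no fold is given. It was called with the slide as a block (adjusted p = 0.00293) and when injured wild-type replicate 4 (3.72, adjusted p = 0.00846) or injured Myd88KO replicate 3 (3.81, adjusted p = 0.00418) was left out. It was not called when only the 10 injured arrays were fitted, without (adjusted p = 0.246) or with the slide as a block (0.308). At an adjusted p under 0.05, Elovl3 was the 1 gene of the 8 that passed (0.675% of all probes). With normexp the difference was 1.47 (adjusted p = 0.136).

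Ucp1 measured 1.71, -0.28, 0.30, 4.22 and 1.63 in injured wild-type and 4.91, 2.55, 2.37, 3.47 and 4.82 in injured Myd88KO tracheas. Wild-type replicate 4 stood higher than 3 of the 5 knockout arrays, and the other 4 wild-type arrays lay below all of them. The difference was 2.11 (SE 0.68, 95% interval 0.68 to 3.54, limma adjusted p = 0.195), positive on 4 of 5 slides, and 2.78 without wild-type replicate 4 (adjusted p = 0.0284). Cidea measured 3.82, 2.60, 2.92, 5.12 and 4.13 in injured wild-type and 6.01, 4.03, 3.95, 3.87 and 5.50 in injured Myd88KO tracheas. The groups overlapped, and the difference was 0.95 (SE 0.45, 95% interval 0.02 to 1.89, limma adjusted p = 0.387). Dio2 (-0.53), Ppargc1a (0.33), Prdm16 (-0.14), Cox7a1 (0.05) and Cox8b (0.12) had 95% intervals that included 0.

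Sex was not given for the samples, and the signal of Xist, a transcript of the inactive X chromosome, divided the arrays into 13 of high signal (3.25 to 4.87) and 7 of low signal (-7.26 to -4.26). Each uninjured group held 3 high and 2 low arrays, the injured wild-type group 3 and 2, and the injured Myd88KO group 4 and 1. Between uninjured genotypes the difference of Ucp1 was 2.15 among high and 2.83 among low arrays, that of Cidea 1.39 and 1.76, and that of Elovl3 2.32 and 3.05. In the uninjured comparison the direction was thus present in both classes. In injured tracheas the difference of Ucp1 was 0.80 among high and 4.82 among low arrays, that of Cidea 0.11 and 2.74, and that of Elovl3 2.67 and 4.74, with a single low array in the knockout group.

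Within each genotype, injury was compared next. All 8 genes had a lower mean after injury in both genotypes, with a median difference of -0.72 in wild-type tracheas (0.00 over all tested probes) and -0.81 in Myd88KO tracheas (-0.07 over all tested probes). Lower means were not particular to these genes. Of the 14 adipocyte markers described below, 13 were lower in wild-type and 14 in Myd88KO tracheas (medians -0.42 and -0.81). All 14 skeletal muscle markers (medians -0.35 and -0.48) and all 11 cardiac and slow muscle markers were lower in both genotypes. None of the 8 genes was called by limma in either genotype, where 5.26% of all probes were called in wild-type and 0.376% in Myd88KO tracheas. The one-way test of the methods also called none of the 8 in wild-type tracheas, where it called 1049 of all 26064 tested probes. In Myd88KO tracheas it called 0 of all probes, so its result there says nothing about the 8 genes. At an unadjusted p under 0.05, 2 of the 8 were lower in wild-type (Ppargc1a and Elovl3, 11.9% of all probes) and 2 in Myd88KO tracheas (Cidea and Prdm16, 12.2% of all probes). No gene's injured arrays lay wholly below its uninjured arrays, against 4.68% and 2.3% of all probes.

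In wild-type tracheas Ppargc1a came nearest to the threshold. It measured 1.32, 0.31, 0.70, 0.55 and 1.36 after injury, against 1.04 to 1.98 without it, and was lower on 5 of 5 slides, with differences of -1.29 to -0.33. The difference was -0.79 (SE 0.26, 95% interval -1.33 to -0.25, limma adjusted p = 0.0486), and the second probe gave -0.76 (adjusted p = 0.0313). At an adjusted p under 0.05, Ppargc1a was the 1 gene of the 8 that passed (12.7% of all probes). With the scan day as a block the adjusted p of the first probe was 0.00926. Elovl3 had a difference of -1.81 (adjusted p = 0.0832) and was lower on 5 of 5 slides, and Cox7a1 and Cox8b were also lower on 5 of 5 slides, with differences of -1.63 to -0.41 and -1.52 to -0.13. The difference of Elovl3, again with 3 injured values not well above background, was -0.57 with normexp. Ucp1 was lower on 3 slides and higher on 2 (-0.47, 95% interval -1.89 to 0.96), and its difference was -1.14 without injured wild-type replicate 4 and -0.02 without injured wild-type replicate 2.

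In Myd88KO tracheas Cidea came nearest, with a difference of -1.5 (SE 0.45, 95% interval -2.43 to -0.56, limma adjusted p = 0.0703), lower on 5 of 5 slides, with differences of -2.24 to -0.46. Its injured arrays fell into 2 high values, replicates 1 and 5, and 3 low ones, replicates 2 to 4. Cox7a1 and Cox8b showed the same order: replicates 1 and 5 measured 7.09 and 7.64 for Cox7a1 and 6.73 and 7.41 for Cox8b, and the other 3 arrays measured 5.10 to 6.17 and 4.54 to 5.58. Replicates 1 and 5 were the 2 slides scanned on the second day, and on those slides Cidea differed by -0.49 between injured and uninjured knockout arrays, against -2.17 on the 3 slides of the first day. The part of the scan day in this was not tested. Without injured Myd88KO replicate 5, the number of all probes called in this comparison was 1075 in place of 98, and the adjusted p was 0.0229 for Cidea, 0.0506 for Cox7a1 and 0.0429 for Cox8b. Array weights, which give arrays that fit their group poorly less influence, led to a difference of -1.97 for Cidea (adjusted p = 0.00126).

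Between the genotypes, the injury responses of the 8 genes did not differ detectably. No gene was called by limma for this difference (0% of all probes). Of the 8 genes 0 had an unadjusted p under 0.05, while 3.41% of all probes had an unadjusted p under 0.05 in the positive and 6.96% in the negative direction, and the smallest adjusted p among the 8 genes was 0.656, for Prdm16. The difference between the responses was -0.31 for Ucp1 (95% interval -2.33 to 1.70), -0.58 for Cidea (-1.90 to 0.74) and 0.69 for Elovl3 (-1.28 to 2.67). All 3 intervals included 0.

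The order of the 4 groups was the same for Ucp1, Cidea and Elovl3: uninjured Myd88KO, injured Myd88KO, uninjured wild-type, injured wild-type. For Ucp1 the means in that order were 4.41, 3.62, 1.98 and 1.52, for Cidea 6.17, 4.67, 4.63 and 3.72, and for Elovl3 -0.92, -2.04, -3.53 and -5.34. Neighbours in these orders were further apart than the larger of their 2 SDs only between injured Myd88KO and uninjured wild-type for Ucp1, between uninjured and injured Myd88KO for Cidea, and between uninjured and injured wild-type for Elovl3. For Dio2 the order was uninjured wild-type (3.38), injured wild-type (3.19), uninjured Myd88KO (2.76) and injured Myd88KO (2.66), with SDs of 0.44 to 0.61. No neighbours in the order of Dio2 differed by more than those SDs.

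General adipocyte markers were also detected in the preparations, and white and brown adipocytes were not told apart by them. Of 15 adipocyte markers, 14 were tested, and all of these were above background on every array, among them Adipoq, Fabp4 and Cfd. The exception was Lep, which was well above background on 6 of 20 arrays. None of the markers was called between uninjured genotypes, but 11 of 14 had a higher mean in the knockout (median difference 0.53, against 0.04 over all tested probes), and 5 of 14 lay wholly above wild-type (1.71% of all probes). These 5, named after their values were seen, were Gpd1 (1.11, adjusted p = 0.296), Plin1 (0.92, 0.52), Lipe (0.82, 0.176), Acacb (0.82, 0.199) and Pnpla2 (0.74, 0.296). They encode a glycerol-phosphate enzyme, a lipid droplet coat protein, 2 lipases and an acetyl-CoA carboxylase. Gpd1 and Acacb are among the transcripts that the study selected on these samples, so their direction is not independent evidence. The mean of the 14 markers on an array was 3.88 to 4.57 in uninjured wild-type, 4.57 to 5.07 in uninjured Myd88KO, 3.09 to 4.58 in injured wild-type and 3.34 to 4.78 in injured Myd88KO tracheas. The log2 of their summed signal, which the brightest markers dominate, was 8.85 to 9.63, 9.52 to 10.25, 8.10 to 9.52 and 8.38 to 9.94 in the same order, and its medians in the uninjured groups were 9.56 and 9.55. The marker mean was thus higher in the uninjured knockout arrays while the median of the summed signal was not.

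Each thermogenic gene was therefore also measured against the adipocyte marker mean of its own array, by exact two-sided permutation tests over arrays in 32 comparisons (8 genes in 4 comparisons), where 5 against 5 cannot give a p below 0.00794. These exact p-values were not adjusted, and 10 of the 32 were under 0.05. Ucp1 lay -3.22 to -1.49 from that mean in uninjured wild-type and -1.12 to 0.38 in uninjured Myd88KO tracheas. The groups did not overlap, and the difference was 1.95 (exact p = 0.00794). Cidea was 1.06 higher (exact p = 0.00794) and Elovl3 2.14 higher (exact p = 0.00794) on the same scale, without overlap. The uninjured differences of Ucp1, Cidea and Elovl3 were thus larger than that of the adipocyte markers. Dio2 and Ppargc1a lay wholly lower in the knockout on this scale, with differences of -1.1 (exact p = 0.00794) and -0.46 (exact p = 0.00794). Without the subtraction Dio2 differed by -0.62 and Ppargc1a by 0.02, with overlapping groups. Nearly all of the Ppargc1a value thus came from the higher marker mean that was subtracted. Prdm16, Cox7a1 and Cox8b overlapped on this scale. In injured tracheas, Elovl3 was 3.26 higher in the knockout (exact p = 0.00794), with 3 of the 5 wild-type values not well above background, Ucp1 2.06 higher (exact p = 0.0238) and Cidea 0.91 higher (exact p = 0.0317). Without injured wild-type replicate 2 or 3 the last exact p was 0.0556. With normexp the relative difference of Elovl3 was 1.26 in uninjured and 1.42 in injured tracheas (exact p = 0.00794 and 0.0159). Injury changed the relative signal of Ucp1 by -0.06 in wild-type and 0.06 in Myd88KO tracheas (exact p = 0.921 and 0.889). On the same scale Cidea differed by -0.66 with injury in Myd88KO (exact p = 0.0317) and by -0.51 in wild-type tracheas (exact p = 0.135), and Elovl3 by -1.41 in wild-type (exact p = 0.0397) and by -0.28 in Myd88KO tracheas (exact p = 0.651).

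**Figure D3:**
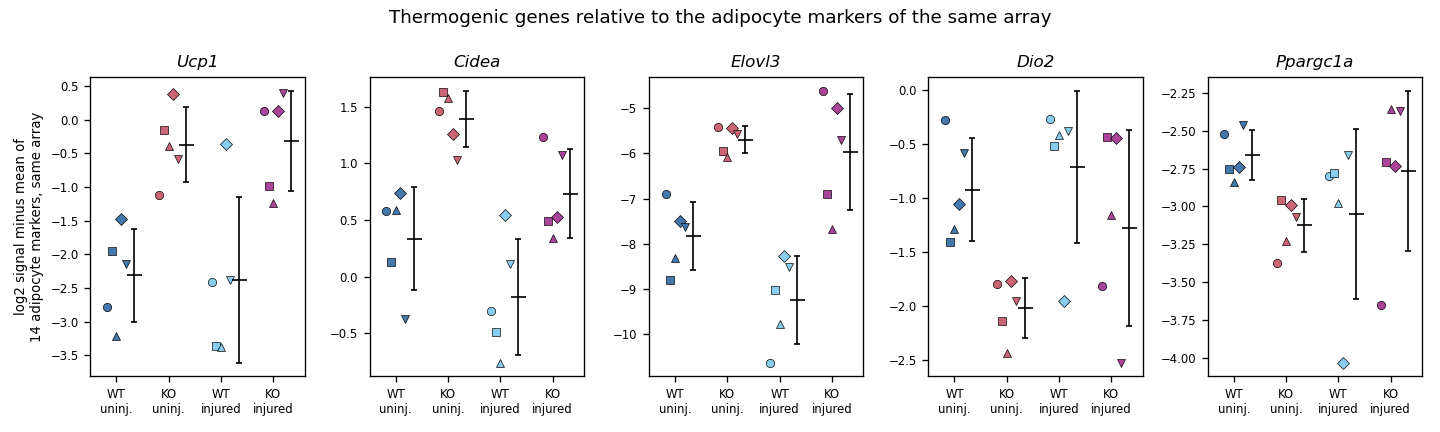
Signal of 5 thermogenic genes minus the mean of 14 adipocyte markers of the same array (vertical axis, log2) in the 4 groups; point shapes mark the replicate number and bars the mean ± SD (n = 5). In uninjured tracheas, knockout arrays lie wholly above wild-type arrays for Ucp1, Cidea and Elovl3 and wholly below them for Dio2 and Ppargc1a. The subtracted mean was itself higher in uninjured knockout arrays, and without it Dio2 and Ppargc1a overlapped between genotypes.

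Over all 20 arrays Ucp1 was correlated with Cidea and Elovl3, and within groups this held in injured tracheas. Pearson's r was 0.85 with Cidea (permutation p = 1e-05, the smallest that 1e+05 permutations can give, adjusted over the 7 relations computed 3.5e-05) and Spearman's rho 0.74 (permutation p = 0.00026, adjusted 0.00091). With Elovl3, r was 0.86 (permutation p = 1e-05, adjusted 3.5e-05) and rho 0.82 (permutation p = 2e-05, adjusted 0.00014). The permutations over all 20 arrays mixed the groups, so these p-values also hold the differences between groups. Without the 2 arrays farthest from the median of Ucp1, r was 0.76 and 0.80, and after each group was centred on its own mean it was 0.81 and 0.70. With the groups so centred, r among the 10 injured arrays was 0.94 for Cidea (permutation p = 0.0014, adjusted over 4 relations 0.0056, rho 0.90) and 0.80 for Elovl3 (permutation p = 0.00729, adjusted 0.0146, rho 0.72, whose adjusted permutation p was 0.0582). Among the 10 uninjured arrays r was 0.15 for Cidea (permutation p = 0.784, rho -0.20) and 0.26 for Elovl3 (permutation p = 0.584, rho 0.02), so no relation within uninjured groups was detectable. In injured Myd88KO tracheas, Ucp1 and Cidea were highest on replicates 1 and 5, the slides of the second scan day. Ucp1 measured 4.91 and 4.82 there and 2.37 to 3.47 on the others. In injured wild-type tracheas, replicate 4 was highest for both genes. The part of the scan day or of single arrays in these relations was not tested. The other 5 relations were weaker: r was 0.53 for Cox8b (permutation p = 0.0207, adjusted 0.0483, rho 0.51, n = 19), 0.43 for Ppargc1a, 0.39 for Prdm16, 0.38 for Cox7a1 and -0.36 for Dio2 (permutation p = 0.118, adjusted 0.118, rho -0.37). Without the 2 farthest arrays, r was 0.40 for Cox8b and 0.13 for Ppargc1a.

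**Figure D4:**
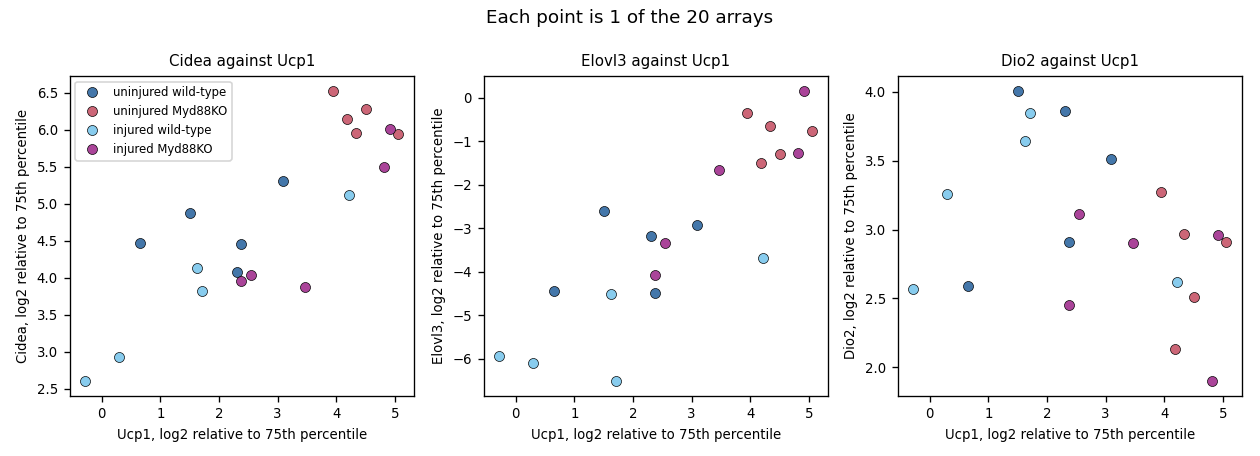
Cidea, Elovl3 and Dio2 (vertical axes) against Ucp1 (horizontal axes), all as log2 signal relative to the 75th percentile of the array, with 1 point per array coloured by group. Over all arrays r is 0.85 for Cidea, 0.86 for Elovl3 and -0.36 for Dio2, and within the uninjured groups the points of Cidea and Elovl3 show no clear slope.

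Among the 17725 other tested genes, each represented by its brightest probe, the 8 whose pattern over 20 arrays was most like that of Ucp1 had r between 0.81 and 0.86. They were a transcript listed as ENSMUST00000024228, Letmd1, Pced1a, Nrg4, Gucd1, Gpd1, Clstn3 and Plin1. Letmd1 encodes a mitochondrial membrane protein, Nrg4 a growth factor secreted by brown fat, Clstn3 a calsyntenin and Plin1 the lipid droplet coat protein named above. Their differences between uninjured genotypes were 0.37 to 1.11, and the lowest limma adjusted p was 0.0286, for Letmd1 (0.98). These genes were picked for likeness to Ucp1 on the same arrays, where Ucp1 itself differed between genotypes. Their differences are therefore not independent of that choice. Letmd1 and Gpd1 are in the study's own selection from these samples.

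The wider thermogenic pathway was described from fixed lists. Of 22 receptors and regulators, 19 were tested and none was called in any of the 4 comparisons, Cebpb and Sirt3 among them. Adrb3, the beta-adrenergic receptor typical of adipocytes, and the hormone gene Fgf21 were well above background on 0 of 20 arrays, and Bmp8b on 5. Between uninjured genotypes 14 of 19 had a higher mean in the knockout, with a median of 0.13 (0.04 over all probes), and 3 lay wholly above wild-type (1.71% of all probes). These 3, named after their values were seen, were Nrg4 (0.87, adjusted p = 0.849), Pparg, the master regulator of fat cells (0.77, 0.785), and Cebpa, a second adipogenic factor (0.48, 0.575). Of the factors that mark the brown lineage, Ebf2 (0.33), Zic1 (0.29) and Lhx8 (-0.14) all had an adjusted p of 1. Zic1 was well above background on 10 arrays and Lhx8 on 18.

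Of 25 genes of fuel use and mitochondria, 24 were tested. Between uninjured genotypes 20 had a higher mean in the knockout (median 0.27), 8 lay wholly above wild-type (1.71% of all probes) and 1 was called (0.384% of all probes). The called gene was Acot11, an acyl-CoA thioesterase, which was higher in the knockout, at 1.28 against 0.22 (difference 1.06, adjusted p = 0.00253). Acot11 and Letmd1 belong to the study's own selection. Otop1 (1.14, adjusted p = 0.35) and Kcnk3, a potassium channel of brown fat (0.86, 0.255), were not called, again chosen after their values were seen. In injured tracheas 20 of 24 had a higher mean in the knockout, the median was 0.18, and 0 were called or lay wholly above wild-type. Means were lower after injury for 21 of 24 genes in wild-type and 23 of 24 in Myd88KO tracheas, and Acot2, an acyl-CoA thioesterase of mitochondria, fell in both (-0.78, adjusted p = 0.003, and -0.85, adjusted p = 0.00843).

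The relatives of the 8 genes were not called in any comparison. Of 16 paralogues, 14 were tested, and Cideb was well above background on 0 of 20 arrays. Between uninjured genotypes Ucp2 differed by 0.32, Ucp3 by -0.87 and Cidec by 0.49, and of the 14 genes 0 lay wholly above or below wild-type. Elovl6, which lengthens palmitate, had a difference of 0.76 (adjusted p = 0.775). Cox7a2 (0.14) and Cox8a (0.36), the forms found in most tissues, had adjusted p of 1 and 0.938. The 18 respiratory chain subunits common to all cells, such as Cox6a1 and Atp5b, were all tested, 0 were called in any comparison, and their median difference between uninjured genotypes was 0.10.

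**Figure D5:**
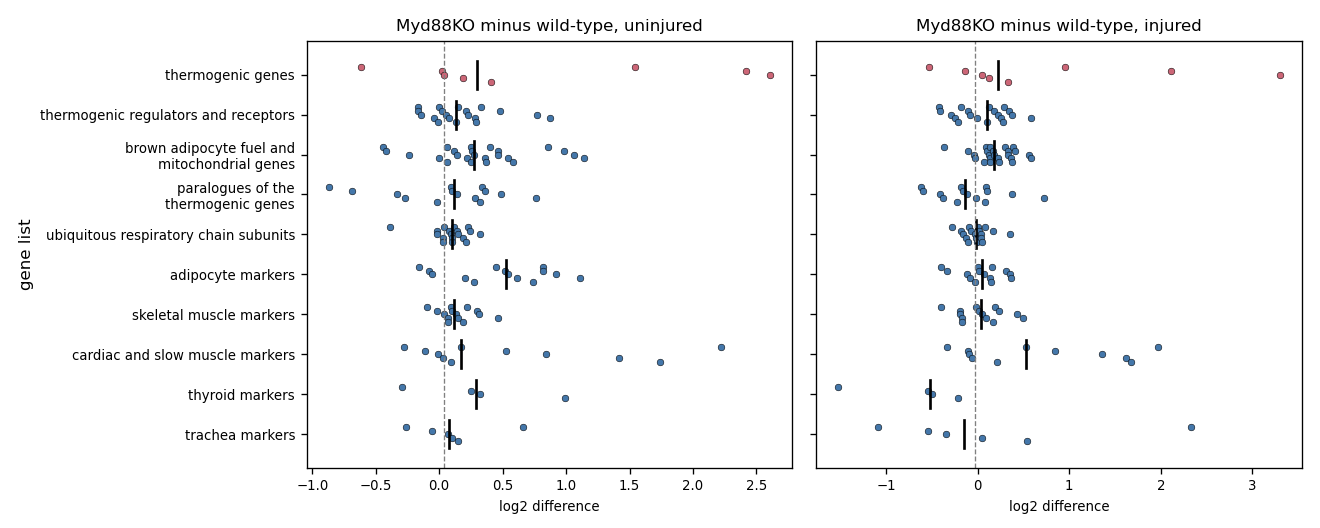
Difference between Myd88KO and wild-type tracheas (horizontal axis, log2) for each tested gene of 10 lists, uninjured on the left and injured on the right. Each point is 1 gene, the thick bar is the median of the list and the dashed line the median of all tested probes (0.04 and -0.03). Ucp1, Cidea and Elovl3 stand to the right of every respiratory chain subunit, and Myh6 and Myh7 are the points furthest right among the muscle genes in uninjured tracheas.

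Markers of other tissues were measured in the same way. Of 14 skeletal muscle markers 0 were called in any comparison, and the log2 of their summed signal was 11.07 to 11.67 in uninjured wild-type and 11 to 11.91 in uninjured Myd88KO tracheas. Of 11 cardiac and slow muscle markers 2 were called between uninjured genotypes: Myh7, the slow myosin heavy chain, was 2.22 higher in the knockout (adjusted p = 3.75e-05) and Myh6, the atrial myosin heavy chain, 1.74 higher (adjusted p = 0.000757). Both were higher in injured knockout tracheas as well (1.97 and 1.67), and both are in the study's own selection. Tnnt2, cardiac troponin T, fell with injury in wild-type tracheas (-2.56, adjusted p = 0.000931). Of 5 thyroid markers 4 were tested and 0 were called, with Tg, thyroglobulin, among them, and their summed log2 signal was 6.56 to 8.48 in uninjured wild-type and 6.43 to 8.88 in uninjured Myd88KO tracheas. Of 6 trachea markers 1 was called: Scgb1a1, the secretory cell protein of the airway, fell with injury in wild-type (-7.91, adjusted p = 1.05e-05) and in Myd88KO tracheas (-6.24, adjusted p = 0.00069). The part of these other tissues in the differences of Ucp1, Cidea and Elovl3 was not tested.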

How the data were processed

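RNA of 20 whole tracheas was labelled with Cy3 and hybridized to Agilent mouse arrays, each sample on its own array. The authors deposited the output of Agilent Feature Extraction 9.5.1.1 for each array, in which the intensity of a spot had been background-subtracted, spatially detrended and, for spots not above background, replaced by a surrogate value, without scaling between arrays. The deposited value table of the same intensity was used as an alternative. The genome build of probe positions is not given in the sources used here, and positions of probes are not printed. Of 45018 spots, 1639 controls were left out, as were 1960 outlier-marked values over all arrays, and spots of a probe were averaged on the log2 scale. From each log2 intensity the array's own 75th percentile was subtracted. Probes well above background on at least 10 of 20 arrays were tested, after the 50% presence filter of the methods. limma 3.58.1 in R 4.3.3 (with the data.table package, version 1.17.8) was fitted to all 20 arrays, with 5 contrasts and Benjamini-Hochberg adjustment within each. The methods name a one-way parametric test, which was run as an alternative on the same values. The script was tested on simulated data. The number of arrays limits the precision.

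Groups and replicate numbers came from sample titles. Per the file headers the replicate number is the slide, and slides 2, 3 and 4 were scanned on one day and 1 and 5 on the other. Deviations of same-numbered arrays from their group means correlated at 0.25 to 0.48 in the 5 uninjured pairs, so those pair, and at -0.22 to 0.33 in the 5 injured pairs. For a gene with several probes the brightest was used in counts, and the 2 Ppargc1a probes are given separately. Probes were matched to the RefSeq table by accession (22951), symbol (6659) or older symbol (3109) (GRCm38.p6, names and promoters only).

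The 8 genes and all lists were chosen with earlier results of these data known. Genes were named by rule: every probe of the 8 genes, up to 4 called genes of each list per comparison or the 2 of highest level, the 8 genes most like Ucp1 and Myd88. Further list genes were named outside this rule, among them Lipe, Pparg and Kcnk3, which were chosen after their values were seen. Alternatives were other background corrections, scalings, filters and blocks, array weights, the 2 groups alone and the omission of each array, and, chosen after seeing the data, an adjusted p under 0.05, the Xist class as a term, the 2 groups alone with the slide as a block, and the relations of Ucp1 within uninjured and within injured arrays.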

Additional observations from a re-analysis of the deposited data

How the results depend on the processing

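The number of the 8 genes called at an adjusted p under 0.01 was 0 in each comparison and moved under 6 alternatives. In injured Myd88KO against wild-type tracheas it was 1 with the replicate block and with the scan day block (Elovl3 in both), and 1 at an adjusted p under 0.05. Of all probes 112, 136 and 176 were then called, in place of 99. In uninjured tracheas it was 2 in the 2 groups alone, without and with the replicate block, where 100 and 90 of all probes were called. For injury in wild-type it was 1 with the scan day block, 2 with array weights and 1 at an adjusted p under 0.05, where 2106, 2599 and 3317 of all probes were called in place of 1372. For injury in Myd88KO it was 1 with array weights, where 1904 of all probes were called in place of 98. Leaving out single arrays gave 0 to 1 in injured tracheas and 0 in the other comparisons. It was 1 without injured wild-type replicate 4 or injured Myd88KO replicate 3, where 82 and 78 of all probes were called. The replicate block over 20 arrays changed no other call of the 8 genes. The cause of each change was not tested.

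Differences near 0 changed sign. With normexp the difference between the responses was -0.26 for Elovl3. Quantile normalization gave -0.02 for Ppargc1a and -0.01 for Cox7a1 between uninjured genotypes, and array weights gave -0.06 and -0.07. Array weights also gave 0.05 for Dio2 with injury in Myd88KO, -0.36 for Cox7a1 and -0.35 for Cox8b between injured genotypes, and -0.29 for Cox7a1 in the difference between responses, which was -0.01 with median scaling and 0 with the Xist class as a term. That term gave -0.06 for Dio2.

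Without single arrays, the difference between responses ran from -0.76 to 0.36 for Ucp1, -0.07 to 0.29 for Dio2, -0.32 to 0.32 for Cox7a1 and -0.67 to 0.04 for Cox8b. Between uninjured genotypes it ran from -0.13 to 0.10 for Ppargc1a and -0.19 to 0.21 for Cox7a1, between injured genotypes from -0.28 to 0.36 for Cox7a1 and -0.27 to 0.45 for Cox8b, and with injury in Myd88KO from -0.25 to 0.10 for Dio2. Ucp1, Cidea and Elovl3 kept their direction between genotypes in every setting run, at 2.09 to 2.70, 1.37 to 1.71 and 1.74 to 2.85 in uninjured tracheas. No group of any of the 8 genes held an array set apart from the others by Dixon's test (32 groups). Normexp took Elovl3 from 2.61 to 1.74 in uninjured and from 3.30 to 1.47 in injured tracheas.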
